A study of Homo sapiens and Mus musculus with 99 samples.

Results

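The transcriptional response of mouse lung epithelial cells to fungal extracts labelled aegs KO and aegl KO was examined. Members were chosen by their labels: 2 libraries given the aegs KO extract, 2 given the aegl KO extract and 2 given DPBS, a buffered saline used as mock treatment. These are 6 of the 99 libraries of the series, all from the mouse experiment here called Lung3. In every group mice received the treatment through the nose and lung epithelial cells were isolated 6 h later, and RNA was sequenced as a bulk pool of cells. The comparisons ask what remains of the response to the extract when either gene is missing, and whether it matters which of them is missing.

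ALT is an extract of Alternaria alternata, a mould whose spores are a common airborne allergen linked to asthma. The study treats Aeg-S and Aeg-L as proteins that act together as a pore-forming pair, and such proteins assemble into channels that open the plasma membrane. The airway and lung epithelium is among the first tissues an inhaled extract meets, and damaged epithelial cells are known to release alarm signals that start type 2 inflammation.

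The aegs KO ALT and aegl KO ALT groups received extract labelled as knocked out for the named gene, the WT ALT group of the same experiment (2 libraries) received extract labelled WT, and the DPBS group received no extract. The labels of Lung3 give no mouse genotype, strain, sex, age or dose, and do not say how the knockouts were made. They call the replicates biological and say no more of their source. If libraries of a group shared animals or cells, the p-values would measure technical spread. The fungal genes are not in the mouse count table, so their loss from the extracts was not checked here. Mouse genes carry Ensembl IDs that the sources used here do not pair with names. Gene lists, pathway members and the markers that would test the labelled cell type were therefore not analysed here, and no sequence is shown. In bulk libraries, fewer cells of a type and less RNA per cell cannot be told apart.

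Other mouse experiments were read for comparison, each against its own DPBS libraries: Lung1 (ALT, 3 libraries a group), Lung2 (Aeg-S, Aeg-L and both together, Aeg-S/L, 2 libraries a group) and the DPBS libraries of Lung4. Lung3 libraries held 33.2 to 33.6 M counts with the aegs KO extract, 35.0 to 35.8 M with the aegl KO extract, 29.6 to 33.0 M with the WT extract and 34.5 to 38.8 M with DPBS. Levels are given in CPM, counts relative to library size, scaled for library composition. The term called marks genes whose edgeR quasi-likelihood p, adjusted by Benjamini-Hochberg over 19092 genes, was under 0.05. Changes are log2 values ± standard error, with the knockout extract over DPBS unless stated.

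One control library stood apart from the rest, and it bears on every comparison with DPBS. Among 14341 genes with a mean of at least 1 CPM, each library given a knockout extract was more than 2-fold away from DPBS 2 at 1409 to 1879 genes. The same libraries were that far from DPBS 1 at only 117 to 185 genes. DPBS 1 and DPBS 2 differed from each other at 1918 genes, whereas replicates differed at 97 genes with the aegs KO extract, at 76 with the aegl KO extract and at 149 with the WT extract. DPBS 2 was more than 2-fold above all other 5 libraries without WT extract at 169 genes and below all of them at 538, whereas no other of the 6 stood out this way at more than 3 genes in either direction. Its share of mitochondrial counts was 2.40%, against 3.05 to 3.37% with the knockout extracts, 2.45 and 2.69% with the WT extract and 3.01% in DPBS 1. Its 10 most abundant genes took the largest share of counts (19.6%, against 15.3 to 17.2% with the knockout extracts, 10.1 and 10.7% with the WT extract and 16.4% in DPBS 1). Among 14160 genes, DPBS 2 was more than 2-fold away from DPBS libraries of Lung1 and Lung2 at 1108 to 1713 genes and DPBS 1 at 53 to 180. The knockout extract libraries were that far from these 5 mock libraries at 71 to 346 genes. The 2 DPBS libraries of Lung4 were at least 2682 genes away from each of these 6 Lung3 libraries. Whether the treatment, the mouse or the preparation set DPBS 2 apart was not tested. It was kept, as the labels put it in the group, and the call counts, response sets and named genes below are also given without it. A second, smaller oddity was aegs KO ALT 1, in which 27741 genes had a count, against 22583 to 25104 in the other 7 libraries.

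**Figure D1:**
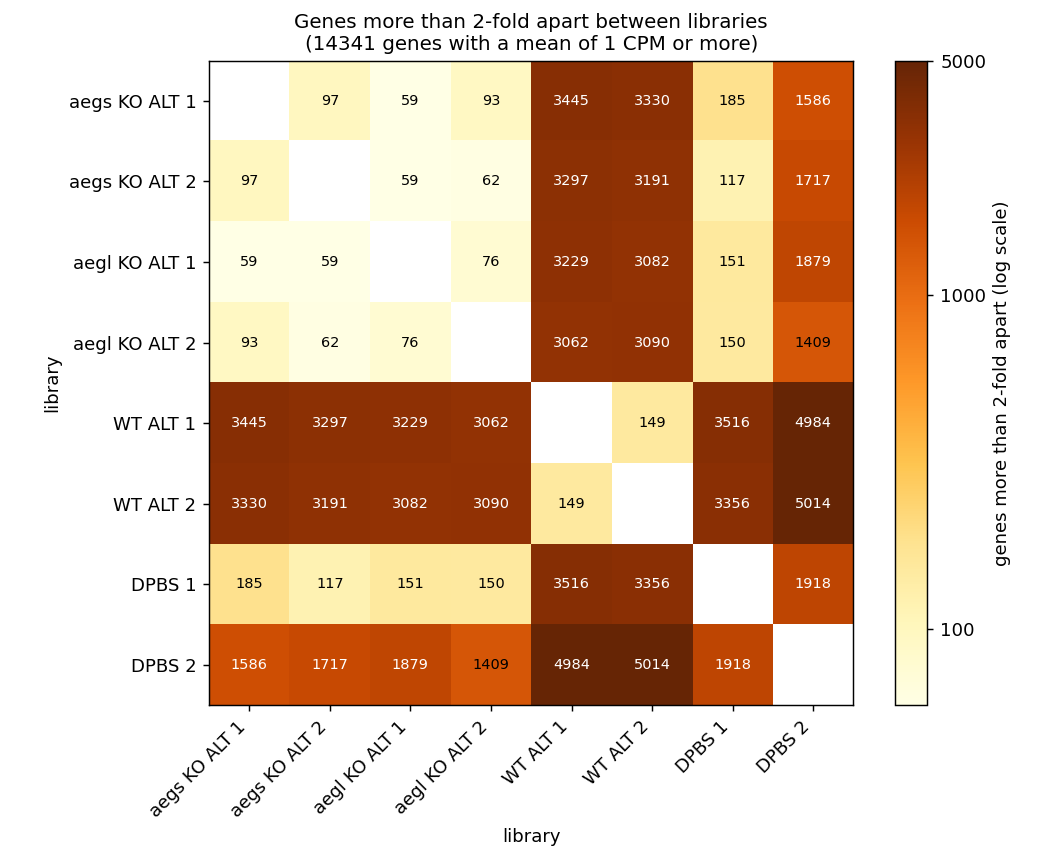
Number of genes more than 2-fold apart between each pair of the 8 Lung3 libraries, out of 14341 genes with a mean of at least 1 CPM, with colour on a log scale. The 4 knockout extract libraries lie 59 to 97 genes apart and 117 to 185 genes from DPBS 1, whereas DPBS 2 lies 1409 to 1918 genes from all of these and the WT extract libraries lie 3062 to 5014 genes from every library of another group.

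With the aegs KO extract, no gene was called against DPBS. edgeR called 0 of 19092 genes (0%), with a lowest adjusted p of 0.0604. At an unadjusted p under 0.05, 530 genes (2.78%) were higher and 533 (2.79%) lower, and DESeq2 called 7 higher and 3 lower. For comparison, the WT extract changed 6539 genes (34.2%), 2956 higher and 3583 lower, and 7997 without DPBS 2, 10266 without DPBS 1, 3228 without WT ALT 1 and 3323 without WT ALT 2. Without DPBS 2 the aegs KO extract gave 1 call, and without DPBS 1 it gave 6027.

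With the aegl KO extract the result was alike in size. edgeR called 0 of 19092 genes (0%), with a lowest adjusted p of 0.140. At an unadjusted p under 0.05, 503 genes (2.63%) were higher and 476 (2.49%) lower, and DESeq2 called 15 higher and 7 lower. Without DPBS 2 there were 4 calls, without DPBS 1 there were 6097, and without aegl KO ALT 2 there was 1.

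With the 4 libraries of both extracts set together against DPBS, 1 gene of 19092 (0.00524%) fell and 0 rose. At an unadjusted p under 0.05, 650 genes (3.40%) were higher and 942 (4.93%) lower, and DESeq2 called 26 higher and 12 lower. The count became 4 without DPBS 2, of which 1 gene was higher and 3 lower, and 6722 without DPBS 1. The genes called against DPBS 2 alone were not displaced against DPBS 1. The 3359 called higher had a median change of 0.83 against DPBS 2 and -0.02 against DPBS 1, and 1 of them was also called against DPBS 1 alone. The 3355 called lower that were tested in both fits had medians of -0.72 and 0.03, and 3 of them were also called. Of the genes called higher against DPBS 2 alone, 1476 were above DPBS 1 at all, and of those called lower, 1381 were below it.

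The precision of a change depended on level. Between 10 and 100 CPM (7474 genes) the median standard error of a log2 change against DPBS was 0.20 for either extract. There the 95% interval lay wholly within 1 log2 unit of 0 for 80.6% of genes with the aegs KO extract and 80.9% with the aegl KO extract. These intervals are not adjusted for the number of genes, so they do not say which changes would be called. On simulated data with no shift in DPBS 2, the test called 26% of 100 genes changed by 1 log2 unit with aegs KO. Under 1 CPM (4751 genes) the median standard error was 0.92 for either extract and 0 genes had so narrow an interval, so changes of 2-fold in these genes were not detectable at this depth and replication. Without DPBS 2 the median standard error between 10 and 100 CPM was 0.14. The shares with an interval within 1 log2 unit of 0 were then 97.3% with aegs KO and 97.2% with aegl KO. Here and below, intervals without DPBS 2 take their spread from the extract groups and hold no spread between controls. Under 1 CPM the median standard error without DPBS 2 was 1.32 with aegs KO and 1.31 with aegl KO. That group then held 6483 genes, as the low-count filter kept more genes, so these values cannot be compared with those over 4751 genes.

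The knockout extracts were then set against each other. edgeR called 0 of 19092 genes (0%) between aegs KO and aegl KO, DESeq2 also called 0, and at an unadjusted p under 0.05 there were 91 genes (0.477%) higher and 106 (0.555%) lower with the aegs KO extract. DPBS libraries enter this difference only through the shared estimate of the spread, the scaling and the choice of tested genes. Between libraries of different knockout extracts, 59 to 93 of 14341 genes (0.411 to 0.648%) were more than 2-fold apart, and between replicates of one extract 76 or 97. The pairs across extracts thus lay about as close as the replicates. For 96.1% of genes between 10 and 100 CPM and 45.5% of genes between 1 and 10 CPM, the 95% interval of the difference lay within 1 log2 unit of 0, so a 2-fold difference between the extracts lay outside the interval for most genes above 10 CPM and was not bounded for most below it. Without aegl KO ALT 2 there was 1 call, a gene lower with the aegs KO extract, and leaving out each of the other 3 knockout extract libraries gave 0. Leaving out DPBS 2 gave 0 calls but raised the genes at an unadjusted p under 0.05 to 751 of 20852 (339 higher and 412 lower with aegs KO, lowest edgeR adjusted p = 0.260). With WT ALT and DPBS 2 both left out there were 0 calls and 776 such genes. The share of genes between 10 and 100 CPM with an interval within 1 log2 unit of 0 was 99.4% without DPBS 2.

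Genes known to answer to the intact extract were examined next, in a set that Lung3 did not define. In Lung1, 5080 of 17801 genes (28.5%) rose and 5353 (30.1%) fell with ALT. Of those with at least a 2-fold change, 2282 were higher and 2173 lower with ALT, and the 200 with the smallest p in each direction were taken as ALT-raised and ALT-lowered genes. These sets were chosen in libraries that share none with Lung3, but with earlier results of these data known. In Lung1 their median changes were 2.58 and -1.72. Aeg-S/L in Lung2 gave 2.66 and -1.59 for the same genes.

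The ALT-raised genes stood slightly above DPBS with both knockout extracts. Against the mean of the DPBS libraries, their median log2 difference was 0.17 and 0.20 in the aegs KO ALT libraries and 0.32 and 0.23 in the aegl KO ALT libraries, against 2.75 and 2.67 in the WT ALT libraries and 0.05 and -0.05 in DPBS 1 and DPBS 2. The DPBS values are equal and opposite because the reference is their own mean, and DPBS 2 stood at -0.10 against DPBS 1. By these medians all 4 knockout extract libraries lay above both DPBS libraries and far below both WT ALT libraries. In the fit the median change was 0.19 with aegs KO, with 135 of 200 genes higher, and 0.26 with aegl KO, with 157 of 200 higher. The median over the 17591 genes tested in both experiments was -0.01 with either extract. edgeR called 0 of the 200 with either knockout extract, where the WT extract raised 200 of 200 by a median of 2.70.

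The shift of the ALT-raised genes was seen against each control. Against DPBS 1 alone, the medians were 0.09 and 0.15 in the aegs KO ALT libraries and 0.27 and 0.18 in the aegl KO ALT libraries. Against DPBS 2 alone they were 0.20 and 0.24 with aegs KO and 0.37 and 0.28 with aegl KO. Genes above the control numbered 120 to 164 of 200 in these 8 views. DPBS 2 itself stood at -0.10 against DPBS 1, so the smallest shift against DPBS 1 was no larger than the distance between the controls. In the fit without DPBS 2 the medians were 0.14 with aegs KO and 0.25 with aegl KO, and edgeR called 0 and 1 of the 200.

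For single genes the residual was small beside the full response. The 95% interval of the change ended short of the gene's own Lung1 change for 200 of 200 ALT-raised genes with aegs KO and for 200 of 200 with aegl KO, but for 3 of 200 with the WT extract. The same held for 200 and 200 without DPBS 2. The interval lay below a 2-fold rise for 152 genes with aegs KO and 134 with aegl KO, and for 165 and 159 without DPBS 2. The fitted change was above 2-fold for 4 genes with aegs KO and 13 with aegl KO, with 0 calls among them. Between the extracts, 146 of the 200 genes were lower with aegs KO than with aegl KO, with a median difference of -0.08 and 0 calls. Over all 17591 genes, 9092 were lower with aegs KO and the median was -0.01. The aegl KO ALT 1 library had the largest shift, and the other 3 lay between 0.17 and 0.23.

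The ALT-lowered genes gave no steady shift. Their median change was 0.00 with aegs KO, with 99 of 200 lower, and -0.01 with aegl KO, with 105 of 200 lower, against -1.68 with the WT extract, where 194 of 200 were called lower. edgeR called 0 of the 200 with either knockout extract. The direction turned with the control. Against DPBS 1 alone the 4 knockout extract libraries had medians of -0.13 to -0.07, and against DPBS 2 alone 0.11 to 0.14. DPBS 2 stood at -0.23 against DPBS 1 over these genes.

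**Figure D2:**
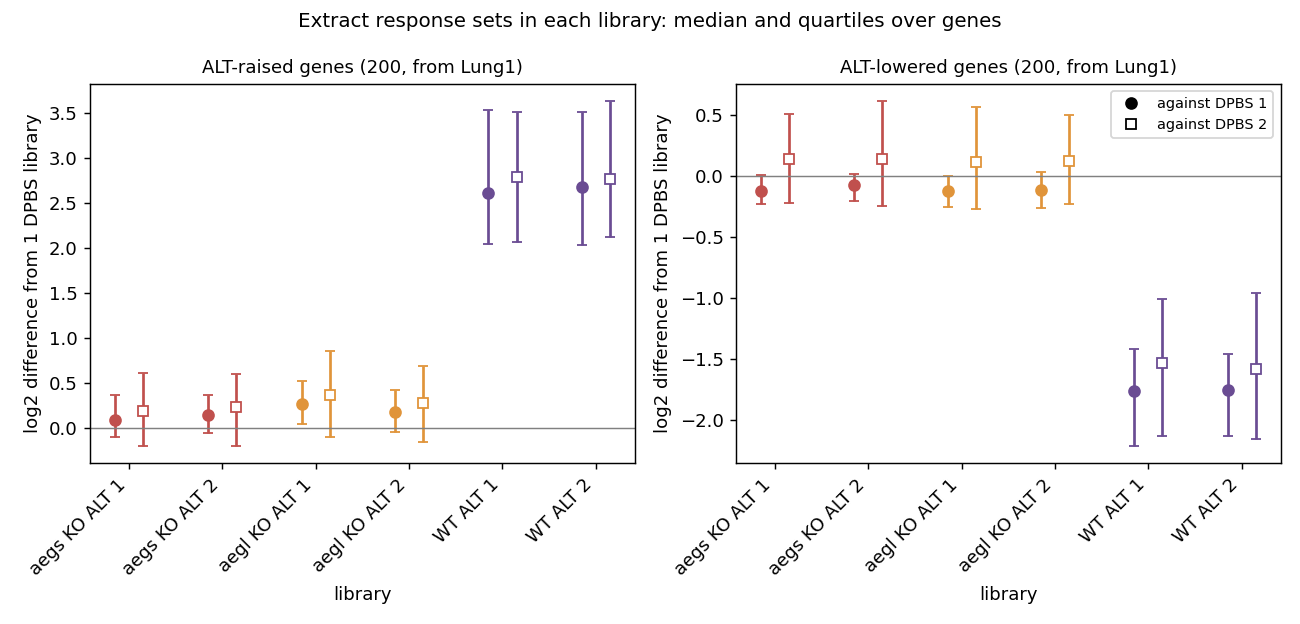
Median and quartiles, over 200 ALT-raised (left) and 200 ALT-lowered genes (right) defined in Lung1, of the log2 difference between each extract library and a single DPBS library of Lung3. Filled circles are against DPBS 1 and open squares against DPBS 2. The knockout extract libraries lie at 0.09 to 0.37 in the left panel, where the WT extract libraries lie at 2.61 to 2.79, and change side with the control in the right panel.

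The shift grew with the size of the Lung1 change. Genes were grouped by their log2 change with ALT in Lung1, whatever their p. The grouping took genes with a mean of at least 1 CPM over all Lung3 libraries, WT ALT included. Genes that the intact extract raised strongly could therefore pass through the WT ALT libraries while lying under 1 CPM with DPBS. How far the medians of the top group rest on such genes was not tested. The 80 genes above 4 in Lung1 had a median of 0.31 with aegs KO, 0.49 with aegl KO and 4.96 with the WT extract. The 1062 genes between 1 and 2 had medians of 0.13, 0.18 and 1.47 in the same order of groups. At the other end, the 45 genes between -4 and -3 had medians of -0.16 with aegs KO, -0.22 with aegl KO and -3.21 with the WT extract. The 6802 genes within 0.5 of 0 had medians of -0.04, -0.04 and -0.09. Without DPBS 2 the top group stood at 0.52 with aegs KO, 0.70 with aegl KO and 5.34 with the WT extract, and the group between 1 and 2 at 0.05, 0.11 and 1.37. With both controls quartiles were wide: for the 80 top genes they were -0.23 and 0.93 with aegs KO and -0.15 and 1.18 with aegl KO. Across 14339 genes the Pearson correlation of the Lung3 change with the Lung1 change was 0.17 for aegs KO, 0.23 for aegl KO and 0.93 for the WT extract, and without DPBS 2 it was 0.18, 0.26 and 0.93. These are descriptions across genes, which are not independent replicates, and the 3 Lung3 changes share their DPBS libraries.

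**Figure D3:**
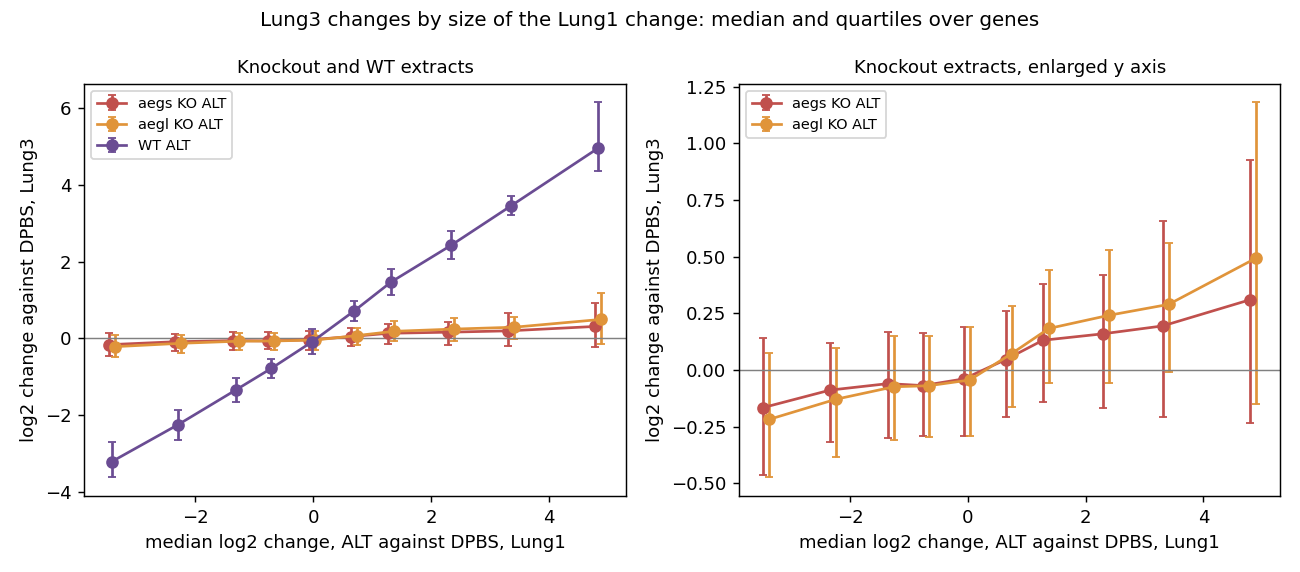
Median and quartiles of the Lung3 log2 change against DPBS for genes grouped by their log2 change with ALT in Lung1, placed at the median Lung1 change of each group, and drawn for groups of at least 20 genes. The left panel holds all 3 extracts and the right panel enlarges the knockout extracts, which reach 0.31 and 0.49 in the top group, where the WT extract reaches 4.96. Genes have a mean of at least 1 CPM over all Lung3 libraries, WT ALT included.

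The genes nearest to a call were then looked up in Lung1. Of the 597 genes that were higher with both knockout extracts at an unadjusted p under 0.05 and tested in Lung1, 54.1% were called higher there, against 28.5% of all 17591 genes. Of the 923 lower genes, 39.3% were called lower in Lung1, against 30.4% of all. With DPBS 1 as the only control these shares were 56.2% of 872 higher genes and 44.6% of 563 lower genes. With DPBS 2 as the only control they were 38.0% of 4279 and 36.8% of 4206. Genes called the opposite way in Lung1 were 12.6% of the higher and 18.3% of the lower genes with both controls. With DPBS 1 alone they were 129 of the 872 higher and 141 of the 563 lower genes. With DPBS 2 alone, 30.4% of the higher genes were called lower in Lung1, against 30.2% of all genes. Of the lower genes, 24.8% were called higher, against 28.6% of all. The 26 genes that DESeq2 called higher with both extracts included 22 called higher in Lung1 and 1 called lower. Their median change was 1.22 with the knockout extracts, and 1.09 against DPBS 1 alone, beside 3.04 with the WT extract and 1.74 with ALT in Lung1. The 12 genes that DESeq2 called lower included 3 called lower in Lung1 and 3 called higher.

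By the naming rule, 10 genes were singled out in the comparison of both extracts with DPBS, those with the smallest p among genes whose groups did not overlap and whose higher group had a mean of at least 1 CPM. Since the rule asks for this separation, the lack of overlap in these genes is a description. Of these, 7 were higher and 3 lower, with log2 changes between -2.25 and 1.47, and 1 passed the test. In Lung1, which shares no library with Lung3, 6 of the 10 were called the same way. Over all 17801 genes tested there, 28.5% were called higher and 30.1% lower. Since names could not be had, the 2 highest and 2 lowest by this rule are given by ID, with mm10 positions from the count table. The library kit keeps no strand mark, and the strand setting of the counting is not known. For 3 of these genes the span overlaps an annotated gene on the other strand, so reads from any shared bases could not be told apart. Whether the overlaps reach exons was not examined here.

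ENSMUSG00000057036.7 (chr3:24333068-24333511, plus strand, listed as a single exon of 444 bases) was the gene that fell. Its level was 3.28 and 3.20 CPM with aegs KO, 3.79 and 4.01 CPM with aegl KO, 4.39 and 4.38 CPM with the WT extract, and 14.5 and 19.2 CPM with DPBS. All 6 extract libraries lay below both DPBS libraries. The change with both knockout extracts was -2.25 ± 0.18 (edgeR adjusted p = 0.0141), lower in 4 of 4 libraries. Alone, aegs KO gave -2.38 ± 0.23 (edgeR adjusted p = 0.0604) and aegl KO -2.11 ± 0.23 (edgeR adjusted p = 0.140), and the WT extract lowered it, with a change of -1.95 ± 0.23 (edgeR adjusted p = 0.000450). Without DPBS 2 the change of both extracts was -2.03 (edgeR adjusted p = 0.00908), and each extract alone then passed (adjusted p = 0.0249 with aegs KO and 0.0295 with aegl KO). The call was lost, at an adjusted p of 0.122 to 0.235, when any single knockout extract library was left out, and at 0.0755 and 0.0787 without WT ALT 1 and WT ALT 2. In the 7 DPBS libraries of the other mouse experiments the gene ranged over 3.57 to 11.7 CPM with a median of 5.85, so the Lung3 DPBS levels lay above all of them and the knockout extract levels lay around the low end. ALT in Lung1 gave -0.11 ± 0.26 (edgeR adjusted p = 0.750).

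ENSMUSG00000106106.3 (chr17:39846353-39848201, plus strand, a single exon of 1849 bases) was the most abundant of the 4. It stood at 1618 and 1164 CPM with aegs KO, 1156 and 1117 CPM with aegl KO, 1241 and 1563 CPM with the WT extract, and 3014 and 2262 CPM with DPBS. The extract libraries again lay below both DPBS libraries. The change with both knockout extracts was -1.07 ± 0.19 and did not pass (edgeR adjusted p = 0.564). Without DPBS 2 it passed, at -1.26 (edgeR adjusted p = 0.0395), and DESeq2 called it with both controls (adjusted p = 0.000619). DPBS libraries elsewhere ranged over 223 to 3303 CPM, so the whole Lung3 range lay within the range of mock-treated lungs of other experiments, and Lung1 gave 0.20 ± 0.27 (edgeR adjusted p = 0.554).

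ENSMUSG00000031871.9 (chr8:104101625-104144511, plus strand, 14 exon intervals) had the largest positive change of the 10. Its level was 9.76 and 6.19 CPM with aegs KO, 9.05 and 7.74 CPM with aegl KO, 10.5 and 11.4 CPM with the WT extract, and 3.08 and 2.81 CPM with DPBS. The extract libraries all lay above DPBS, at least 2-fold, and the 4 knockout extract libraries lay below the WT ones. The change with both knockout extracts was 1.47 ± 0.24 and did not pass (edgeR adjusted p = 0.564), although DESeq2 called it (adjusted p = 0.000776). Without DPBS 2 it was 1.41 (edgeR adjusted p = 0.206). Against the WT extract, aegs KO gave -0.46 ± 0.25, with a 95% interval of -1.03 to 0.12, and aegl KO gave -0.38 ± 0.25, with an interval of -0.96 to 0.19. Other experiments differed: Aeg-S/L in Lung2 raised it by 1.64 ± 0.33 (edgeR adjusted p = 0.00605), ALT in Lung1 gave 0.50 ± 0.41 (edgeR adjusted p = 0.312), and DPBS libraries elsewhere ranged over 2.88 to 26.6 CPM.

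ENSMUSG00000117604.1 (chr18:26007557-26215653, plus strand, 18 exon intervals) answered strongly to the intact extract. It stood at 0.791 and 0.748 CPM with aegs KO, 1.59 and 1.43 CPM with aegl KO, 36.0 and 42.2 CPM with the WT extract, and 0.480 and 0.355 CPM with DPBS. In counts these were 27 and 25 with aegs KO, 57 and 51 with aegl KO, and 17 and 13 with DPBS. It met the level rule only through the extract libraries, as DPBS and aegs KO lay under 1 CPM. The aegl KO libraries lay above the aegs KO libraries, and all 4 far below the WT extract. The change was 0.88 ± 0.28 with aegs KO (edgeR adjusted p = 0.726) and 1.85 ± 0.27 with aegl KO (edgeR adjusted p = 0.625), beside 6.54 ± 0.27 with the WT extract (edgeR adjusted p = 2.92e-05). Without DPBS 2 the knockout extracts gave 0.68 (edgeR adjusted p = 0.763) with aegs KO and 1.65 (edgeR adjusted p = 0.278) with aegl KO. With both controls DESeq2 called it with aegl KO (adjusted p = 0.00773) and not with aegs KO (adjusted p = 1). Between the extracts the difference was -0.97 ± 0.25, with an edgeR adjusted p of 1. ALT in Lung1 raised it by 6.36 ± 0.34 (edgeR adjusted p = 1.51e-08) and Aeg-S/L in Lung2 by 6.16 ± 0.68 (edgeR adjusted p = 0.000446). DPBS libraries elsewhere ranged over 0.130 to 1.31 CPM, a range that holds the aegs KO levels, and the aegl KO levels lay just above it.

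**Figure D4:**
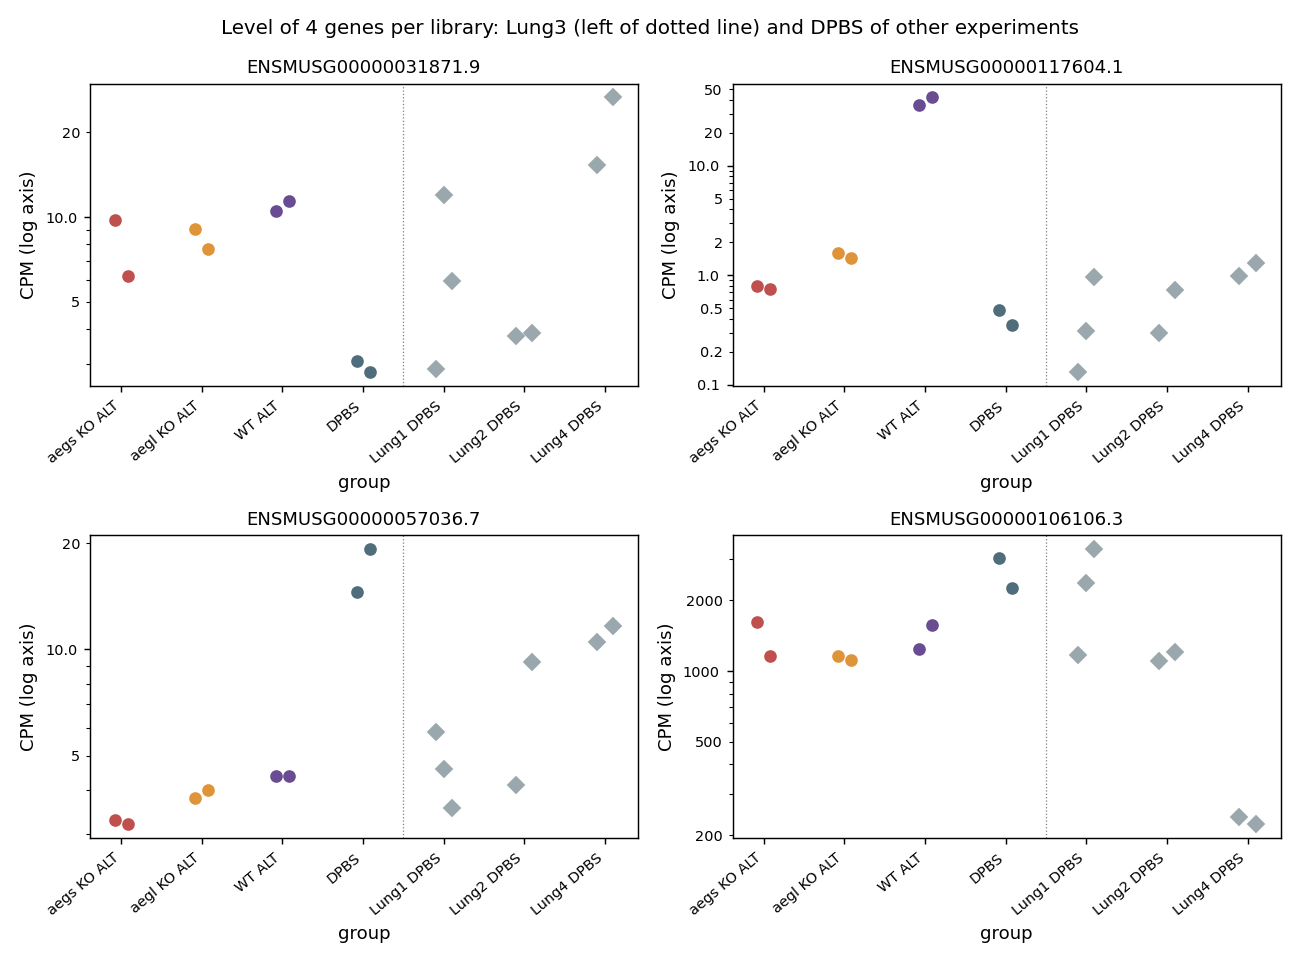
Level in CPM, on a log axis, of the 4 genes given by ID in each Lung3 library (circles) and in the DPBS libraries of Lung1, Lung2 and Lung4 (diamonds). ENSMUSG00000057036.7, the one gene called with both knockout extracts, lies at 3.20 to 4.01 CPM with them and at 14.5 and 19.2 CPM in the DPBS libraries of Lung3, above the 3.57 to 11.7 CPM of DPBS libraries elsewhere.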

How the data were processed

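Per the labels, a TIANGEN RNAprep kit gave the RNA and a NEBNext Ultra RNA kit, which keeps no strand mark, the libraries. Reads were aligned to mm10 with HISAT2 2.2.1 and SAMtools, counted per gene with featureCounts 2.0.2 and tested with DESeq2 1.36.0 in R 4.2.2, per the submitters' processing notes. The strand setting of the counting step was not stated in these sources. The authors deposited raw counts per gene, which were used as deposited. The reference used here names 0 of the 55401 mouse IDs. In the Lung4 table, 2 lines that carry no gene ID (3.0e-06% of its counts) were left out.

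Each experiment was fitted on its own in edgeR 4.0.16 (R 4.3.3) with filterByExpr, TMM scaling, 1 coefficient per group and the quasi-likelihood F test, with all 8 Lung3 libraries sharing 1 estimate of the spread. Standard errors are the absolute log2 change over the square root of F. Differences between single libraries are of log2(CPM + 0.5). A library left alone in its group was taken to have the spread of the remaining groups. Standard errors, intervals, groups by Lung1 change and mitochondrial genes without DPBS 2, and views of single libraries against 1 DPBS library, were added after seeing the data. Calls were recomputed with DESeq2 1.42.0 and under the settings given in the closing section. The test was checked on simulated data with known changes in aegs KO ALT. The other libraries without WT extract shared a common mean level there, so DPBS 2 was given no shift of its own. Against DPBS the test called 26% of 100 genes changed by 1 log2 unit and 90% of 100 changed by 2 log2 units. It made 2 false calls. Counts of replicates differed beyond sampling noise in every group, with a chi-square over its degrees of freedom of 8.92 with aegs KO, 20.3 with aegl KO, 17.4 with WT ALT and 201 in DPBS.

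The naming rule took called genes with at least 1 CPM and no overlap of groups and, where fewer than 5 were called, the 10 genes with the smallest unadjusted p, and, as no names were to be had, at most 2 IDs a direction. The libraries, sets and rules were chosen with earlier results of these data known.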

Additional observations from a re-analysis of the deposited data

How the results depend on the processing

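Calls by edgeR with aegs KO, aegl KO, aegs KO against aegl KO, and both extracts against DPBS numbered 0, 0, 0 and 1. They became 10, 22, 0 and 38 with DESeq2, and 97, 119, 16 and 344 without the low-count filter. They were 0, 0, 0 and 0 without the WT libraries, and 2, 8, 0 and 11 when DPBS 2 was left out of that fit too, a setting chosen after seeing the data, as was leaving out WT ALT 1 or 2 (0 calls each for both extracts). DESeq2 size factors and robust estimation left all 4 counts as they were. Leaving out 1 library gave 0 to 6027, 0 to 6097, 0 to 1 and 0 to 6722 calls. For both extracts the count was 0 without each knockout library in turn, 4 without DPBS 2 and 6722 without DPBS 1. The cause of the losses was not tested.

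The replicate number as a block gave 0, 0, 0 and 1 calls. Deviations of same-numbered libraries correlated at -0.08 to 0.04 over 6 pairs of groups, so no shared deviation by replicate number was seen. With 2 libraries a group, this cannot tell whether same-numbered libraries shared a day or a preparation. Under the block the medians were 0.20 and 0.27 for ALT-raised genes with aegs KO and aegl KO, and 0.0037 and -0.0081 for ALT-lowered genes.

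With 50 genes a set, ALT-raised medians were 0.22 with aegs KO and 0.40 with aegl KO, and ALT-lowered medians -0.034 and -0.033. With DESeq2 size factors the ALT-lowered medians were 0.0045 and -0.013. Leaving out 1 library gave ALT-raised medians of 0.14 to 0.23 with aegs KO and 0.20 to 0.36 with aegl KO, and ALT-lowered medians of -0.090 to 0.15 and -0.11 to 0.13. No named gene changed direction in any of these settings.

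With 2 libraries a group and 1 control library apart from the rest, the distance between DPBS libraries entered the shared spread, and genes under 1 CPM had wide intervals.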

Other observations

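A further set was made after the values were seen: genes that moved with ALT in Lung1 beyond what Aeg-S/L did in Lung2, by a joint fit of both experiments. No gene rose this way and 13 fell. Their median change was -0.45 with aegs KO, with 12 of 13 lower, and -0.40 with aegl KO, with 10 of 13 lower. Over all 17591 genes tested in Lung1 and Lung3, 8980 were lower with aegs KO and 8901 with aegl KO, with medians of -0.01. The WT extract gave -1.23 for the 13 genes and lowered 11 of them by the test. edgeR called 0 of the 13 with either knockout extract. Against DPBS 1 alone the library medians were -0.18 and -0.19 with aegs KO and -0.15 and -0.18 with aegl KO, and against DPBS 2 alone -0.39 and -0.45 with aegs KO and -0.61 and -0.42 with aegl KO. Genes below DPBS 1 numbered 12 and 11 of 13 in the aegs KO ALT libraries and 8 and 8 in the aegl KO ALT libraries. Below DPBS 2 they numbered 11 and 9 with aegs KO and 9 and 9 with aegl KO. DPBS 2 stood 0.31 above DPBS 1 over these genes.

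Of 37 mitochondrially encoded genes, 16 were tested and 0 were called with either knockout extract. Their median change was 0.12 with aegs KO and 0.13 with aegl KO, against -0.18 with the WT extract. The share of mitochondrial counts was low in DPBS 2 (2.40%, against 3.01% in DPBS 1). Without DPBS 2 the medians were 0.07 with aegs KO and 0.13 with aegl KO, against -0.21 with the WT extract, with 0 calls for either knockout extract.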
